A study of Mus musculus with 26 samples.

Results

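The cell cycle and DNA replication genes described here were 40 named members of 21883 mouse protein-coding genes. They were the subunits and partners of the replicative helicase (Mcm2 to Mcm7 and Mcm10), the origin licensing and firing factors (Cdc6, Cdt1, Cdc45, Orc1, Orc2 and Orc6), the sliding clamp and its loader (Pcna and Rfc1 to Rfc5), 5 E2F transcription factors (E2f1 to E2f5), 8 cyclins (Ccna2, Ccnb1, Ccnb2, Ccnd1, Ccnd2, Ccnd3, Ccne1 and Ccne2), the kinases Cdk1, Cdk2, Cdk4 and Cdk6 with the phosphatase Cdc25a, and the inhibitors Cdkn1a, Cdkn1b and Cdkn2a. The members were chosen by name and by no rule on their values, though with earlier results of these data known. A member was counted as having a peak in a library where a deposited peak lay within 1 kb of either end of its gene in the RefSeq annotation of GRCm38, here called a gene-end peak.

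Accessibility was assayed by ATAC-seq, whose transposase cuts open chromatin, in mouse pluripotent stem cells of several kinds, from 50000 cells in each of 26 libraries. The first set held 18 libraries, 3 of each culture: naive embryonic stem cells in 2iL at passage 16 (ES), formative stem cells in A3XR at passage 21 (FS1) and passage 29 (FS2), and epiblast stem cells in AF at passage 22 (EpiSC_AF) or in AFX at passage 14 (EpiSC_AFX1) and passage 16 (EpiSC_AFX2). The Rd2 set held 8 libraries labelled wild type (WT): 2 of ES cells in 2iL at passage 33, named Rd2GFP by their source (Rd2_ES), 4 of epiblast-like cells made from ES cells by 2 days in AF with KSR after which the GFP-low cells were sorted and used (Rd2_EpiLC), and 2 of epiblast stem cells in AFX at passage 16 (Rd2_AFX). The labels give no strain, no sex and no genotype beyond these names, and each culture name may stand for 1 line. FS joins FS1 and FS2 below, and EpiSC_AFX joins EpiSC_AFX1 and EpiSC_AFX2.

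The lists of the first set held between 8044 and 31263 peaks, and those of the Rd2 set between 471 and 26045. A longer list holds more of any gene set, so each first-set list was also reduced to its 8044 peaks of highest −log10 p (equal length), and the Rd2_EpiLC and Rd2_AFX lists to 7469. The lists hold no read counts, so depth is unknown, and list length is the only measure of it here. The ES lists held 8044 to 10961 peaks and were the 3 shortest of the first set, followed by the 3 FS2 lists with 11796 to 14147. Of 8 naive markers at equal length, Zfp42 and Tbx3 had a gene-end peak in 3 of 3 ES libraries and in 0 of the other 15 libraries of the first set. The others did not follow the ES label: Klf4 and Nanog had one in 2 of 3 ES libraries and in 4 of 6 and 6 of 6 EpiSC_AFX libraries, Tfcp2l1 in 0 of 3 and 6 of 6, and Esrrb, Nr5a2 and Dppa3 in none of the first set. The extraembryonic endoderm markers had none in any equal-length list, while 0 to 2 of 6 fibroblast markers had a peak, none of them in ES. As deposited, 1 to 5 fibroblast markers had one in FS and 3 to 5 in EpiSC_AFX. In those lists Tbx3 also had one in 4 of 6 FS, 3 of 3 EpiSC_AF and 6 of 6 EpiSC_AFX libraries. Zfp42 then had one in 1 of 3 EpiSC_AF libraries and in 0 of 6 FS and 0 of 6 EpiSC_AFX libraries. Of 6 formative markers at equal length, 0 to 1 had a peak in ES, 0 to 3 in FS and 3 to 5 in EpiSC_AF and EpiSC_AFX. They thus did not single out FS. Of Pou5f1, Sox2 and Sall4, 0 to 1 had one in ES, 0 to 2 in FS and 1 to 3 in EpiSC_AFX, also at equal length. At most 2 primed and at most 2 neural markers had one in any first-set library at equal length. As deposited, up to 5 primed markers had one in EpiSC_AFX libraries, and up to 4 neural markers in FS libraries.

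Replication starts at origins where the origin recognition complex, with Cdc6 and Cdt1, loads the Mcm helicase in G1, and the loaded helicase is set off in S phase by Cdc45 and its partners. Cyclin-dependent kinases drive these steps, and they are restrained by inhibitors and by the retinoblastoma proteins, which hold E2F factors in check. E2F sites are common in the promoters of replication genes, while CCAAT boxes and cell cycle homology elements (CHR) are known from promoters of genes that peak in G2 and mitosis. Mouse ES cells are known for a short G1 phase and for fast division.

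Promoters of 8 members are shown first because the results below turn on them. They comprise 3 members of which few or no ES libraries had a peak (Rfc3, Mcm10 and Cdc6), the inhibitor with a peak in every ES library (Cdkn2a), 3 with a peak in all 18 libraries (Pcna, E2f3 and Ccnb1), and the inhibitor whose peak lay away from the gene end (Cdkn1a). They were chosen after the values were seen. The sequences are from RefSeq (GRCm38.p6), from 250 bases before to 50 bases after an annotated start, 5′ to 3′ on the gene's strand. Capitals mark 4 motifs on either strand: an E2F core (in its form TTCCCGC, its form TTCGCGC, its form TTGCCGC, or its form TTGGCGC), the CCAAT box (CCAAT), the CHR element (TTTGAA, or with a different middle TTCGAA) and the GC box (GGGCGG). Overlapping matches share 1 run of capitals. The positions are chr4:89294570-89294869 (minus strand, first start) for Cdkn2a, chr5:151651159-151651458 (minus) for Rfc3, chr2:5012742-5013041 (minus) for Mcm10, chr11:98907901-98908200 (plus) for Cdc6, chr2:132253131-132253430 (minus) for Pcna, chr13:29986014-29986313 (minus, first start) for E2f3, chr13:100786437-100786736 (minus) for Ccnb1 and chr17:29093519-29093818 (plus, second start) for Cdkn1a.
Cdkn2a: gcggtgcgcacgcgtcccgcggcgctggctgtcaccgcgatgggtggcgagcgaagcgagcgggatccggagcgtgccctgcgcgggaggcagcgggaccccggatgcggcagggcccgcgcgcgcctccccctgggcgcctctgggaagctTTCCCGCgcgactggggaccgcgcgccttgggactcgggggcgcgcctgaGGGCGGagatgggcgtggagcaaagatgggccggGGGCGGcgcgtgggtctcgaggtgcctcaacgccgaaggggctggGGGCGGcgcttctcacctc
Rfc3: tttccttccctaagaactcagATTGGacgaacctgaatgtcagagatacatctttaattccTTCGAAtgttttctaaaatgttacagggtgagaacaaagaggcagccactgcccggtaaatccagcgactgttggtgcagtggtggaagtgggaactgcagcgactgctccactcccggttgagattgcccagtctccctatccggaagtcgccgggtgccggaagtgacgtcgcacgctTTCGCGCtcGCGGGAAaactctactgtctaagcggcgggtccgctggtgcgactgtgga
Mcm10: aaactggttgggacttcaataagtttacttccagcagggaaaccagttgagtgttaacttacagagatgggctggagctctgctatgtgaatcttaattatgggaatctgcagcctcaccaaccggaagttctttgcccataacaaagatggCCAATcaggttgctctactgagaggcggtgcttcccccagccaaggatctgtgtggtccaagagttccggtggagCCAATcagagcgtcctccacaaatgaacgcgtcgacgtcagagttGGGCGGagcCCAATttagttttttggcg
Cdc6: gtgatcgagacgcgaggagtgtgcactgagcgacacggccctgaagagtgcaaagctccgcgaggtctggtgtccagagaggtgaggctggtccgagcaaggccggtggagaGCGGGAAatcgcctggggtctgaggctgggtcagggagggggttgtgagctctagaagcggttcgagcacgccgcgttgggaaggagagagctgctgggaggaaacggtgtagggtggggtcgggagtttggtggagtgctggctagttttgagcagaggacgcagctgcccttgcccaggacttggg
Pcna: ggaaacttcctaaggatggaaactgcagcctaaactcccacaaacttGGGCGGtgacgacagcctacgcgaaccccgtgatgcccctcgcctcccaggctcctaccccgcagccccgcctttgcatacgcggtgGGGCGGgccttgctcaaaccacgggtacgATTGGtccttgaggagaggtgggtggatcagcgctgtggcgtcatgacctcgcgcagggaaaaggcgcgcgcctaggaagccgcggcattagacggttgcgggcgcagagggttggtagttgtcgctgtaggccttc
E2f3: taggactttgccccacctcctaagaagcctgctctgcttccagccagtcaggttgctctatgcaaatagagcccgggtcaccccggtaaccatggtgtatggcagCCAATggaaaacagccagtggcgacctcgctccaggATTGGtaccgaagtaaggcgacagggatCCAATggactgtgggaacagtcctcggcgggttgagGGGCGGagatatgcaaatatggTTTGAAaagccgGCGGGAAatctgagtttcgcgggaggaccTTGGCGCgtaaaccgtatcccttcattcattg
Ccnb1: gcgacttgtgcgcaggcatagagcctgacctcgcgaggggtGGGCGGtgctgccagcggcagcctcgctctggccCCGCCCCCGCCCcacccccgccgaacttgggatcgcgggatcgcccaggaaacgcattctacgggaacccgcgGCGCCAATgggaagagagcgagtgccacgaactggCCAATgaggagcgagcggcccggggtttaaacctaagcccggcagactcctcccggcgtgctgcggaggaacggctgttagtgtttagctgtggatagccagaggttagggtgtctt
Cdkn1a: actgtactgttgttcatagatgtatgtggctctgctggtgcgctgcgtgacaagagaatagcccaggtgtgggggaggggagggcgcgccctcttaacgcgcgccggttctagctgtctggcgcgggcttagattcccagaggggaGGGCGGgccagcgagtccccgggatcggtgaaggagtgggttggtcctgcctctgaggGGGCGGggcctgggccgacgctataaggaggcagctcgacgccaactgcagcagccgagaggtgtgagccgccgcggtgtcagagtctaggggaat

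The E2F core was found in the Rfc3 window 2 times, in the E2f3 window 2 times and 1 time each in those of Cdkn2a, Cdc6 and Ccnb1, and it was in none of the windows of Mcm10, Pcna and Cdkn1a. Mcm10 held 3 CCAAT boxes and E2f3 held 3, and in Ccnb1 an E2F core and a CCAAT box overlapped. Of the 40 members, 32 had an annotated start in the promoter table, and 17 of those 32 (53.1%) held an E2F core in at least 1 window, against 13.7% of all 17491 genes with a start. A CCAAT box was in 23 of the 32 (71.9% against 42.3%), a GC box in 26 (81.25% against 49.2%) and a CHR element in 8 (25% against 20.2%). The members' windows were also richer in G and C, the letters of the GC box and most of the E2F core, with a median GC content of 60.3% against 56.3% and a median ratio of observed to expected CpG of 0.875 against 0.567. A match is only a match of letters, and no binding was measured.

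At equal list length, each first-set library had a gene-end peak at 19 to 26 of the 40 members, or 47.5% to 65%, whereas the share over all protein-coding genes was 20.6% to 26.1%. The share of members was 55.8% ± 1.44 (SD, n = 3) in ES, 63.3% ± 2.89 (n = 3) in FS1, 51.7% ± 5.20 (n = 3) in FS2, 60.0% ± 2.50 (n = 3) in EpiSC_AF, 62.5% ± 0 (n = 3) in EpiSC_AFX1 and 59.2% ± 2.89 (n = 3) in EpiSC_AFX2. FS1 and FS2 did not overlap (24 to 26 members against 19 to 23), a difference that was not tested, and ES with 22 to 23 members overlapped FS2. The shares over all genes did not overlap between FS1 (25.4% to 25.9%) and FS2 (22.6% to 24.0%) either, nor did those of the pathway list below (53.8% to 56.4% against 42.3% to 52.6%), so this was not particular to the members. In every first-set library the members' share was above that of all genes, as the plot of shares and widths shows. The 78 other cell cycle and replication genes of the pathway list had shares of 42.3% to 56.4%, so a high share was not particular to the 40 members.

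**Figure D1:**
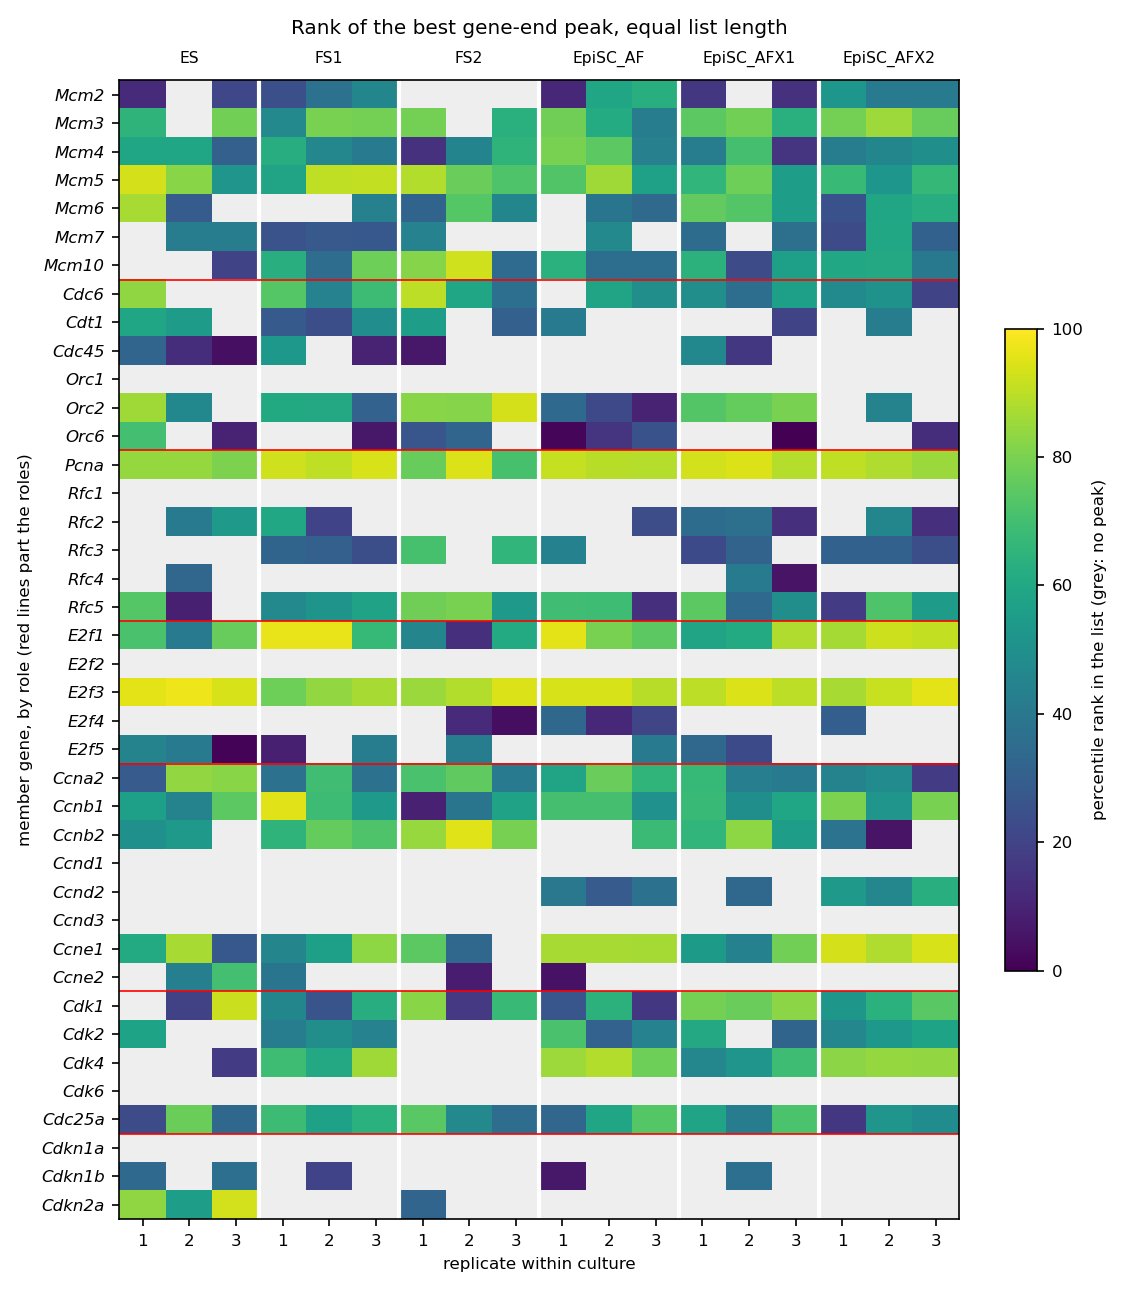
Percentile rank of the best gene-end peak of each of the 40 members (rows, grouped by role) in the 18 first-set libraries (columns, 3 per culture), at equal list length. Yellow marks ranks near the top of a list and grey marks no peak. E2f3 and Pcna are bright in all 18 libraries, and Cdkn2a has a peak in the 3 ES libraries and in FS2 replicate 1.

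The strength of a peak was read as its percentile rank by −log10 p within its own list, where 100 is the strongest. The median rank of the members with a peak was 43.9 to 74.5 in the first-set libraries, against 50.8 to 56.8 over all genes with a peak. Peaks at members were thus common, and their ranks lay on both sides of those of other gene-end peaks. Median width at the members was 280 ± 21.8 bp in ES (SD, n = 3), 398 ± 42.5 bp in FS1 (n = 3), 269 ± 37.6 bp in FS2 (n = 3), 381 ± 45.6 bp in EpiSC_AF (n = 3), 394 ± 75.4 bp in EpiSC_AFX1 (n = 3) and 385 ± 13.5 bp in EpiSC_AFX2 (n = 3). The narrow peaks of ES and FS2 were not particular to the members, because the median width over all genes was 312 ± 5.03 bp in ES (n = 3) and 294 ± 18.4 bp in FS2 (n = 3), against 385 to 431 bp as culture means elsewhere in the first set. ES and FS2 were also the cultures with the shortest lists, and the part of list length in the width was not tested.

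**Figure D2:**
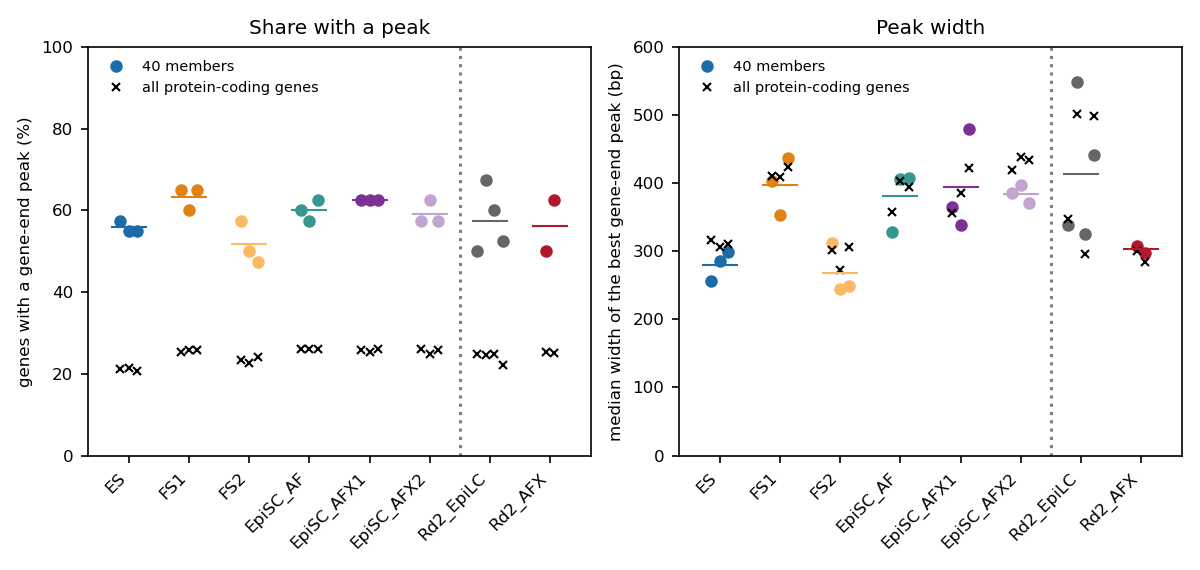
Left, percent of genes with a gene-end peak at equal list length; right, median width in bp of the best gene-end peak. Each filled point is 1 library, lines are culture means, and crosses give all protein-coding genes. The dotted line parts the first set from the Rd2 set, which was taken as processed differently. Members lie above all genes in every library on the left, and widths of members and of all genes move together on the right.

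The replicative helicase unwinds DNA ahead of the fork. Its genes had the most gene-end peaks of the 7 roles, with a mean share of 84.9% over the 18 first-set libraries at equal length. Mcm4 and Mcm5, 2 of the helicase subunits, had a peak in all 18. The rank of the Mcm5 peak ranged from 52.3 to 93.7 with a median of 72.7. Mcm3 had a peak in 16 libraries, Mcm10 in 16, Mcm6 in 14, Mcm2 in 13 and Mcm7 in 12. Mcm2 had none in the 3 FS2 libraries. Mcm7 peaks were the widest of all members, with a median of 1134 bp over the 12 lists that held one. This gene has 2 annotated starts less than 1 kb from a gene end. The order of roles was read by gene ends. Each other role held a member with an annotated start more than 1 kb inside its RefSeq span (Orc1, Rfc1, E2f2, Ccnd3, Cdk6 or Cdkn1a). Those members had no gene-end peak at equal length. By annotated starts at equal length, E2f1, E2f2 and E2f3 had a peak in 18, 17 and 18 libraries. The helicase genes with a start had one in 12 (Mcm7) to 18 (Mcm5).

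Mcm10, a replication initiation factor that binds the helicase, set ES apart from the other cultures in number of libraries. Its ranks were 20.7 in ES replicate 3 and no peak in ES replicates 1 and 2. In FS1 they were 63.2, 35.6 and 77.9, in FS2 81.9, 92.8 and 35.1, and in EpiSC_AF 63.8, 36.3 and 36.3. In EpiSC_AFX1 they were 64.3, 22.9 and 56.4 and in EpiSC_AFX2 59.4, 60.5 and 40.3. Every first-set library outside ES held the peak, at a rank above that of the single ES peak. The peak was also in 4 of 4 Rd2_EpiLC and 2 of 2 Rd2_AFX libraries, a set taken as processed differently. The peak lay over the annotated start in 16 of 16 lists, with its centre at a median of -15.25 bp from it, where minus is upstream, in the window printed above with its 3 CCAAT boxes.

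The licensing and firing factors had a mean share of 53.7%. Cdc6, which helps to load the helicase, had ranks of 83.5 in ES replicate 1 and no peak in the other two ES libraries, against a peak in 6 of 6 FS, 2 of 3 EpiSC_AF and 6 of 6 EpiSC_AFX libraries. The FS ranks were 36.5 to 90.1 with a median of 63.9, and the EpiSC_AFX ranks 20.5 to 56.5 with a median of 48.6. The lone ES peak was thus among the strongest Cdc6 peaks, and ES and the other cultures overlapped in rank. The Cdc6 peak did not cover the annotated start in any of 16 lists. Its centre lay at -450.5 to -366.5 bp, where minus is upstream, outside the printed window. The RefSeq gene end lay 442 bp upstream of that start.

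Cdc45, which joins the helicase at firing, went the other way at equal length. It had a peak in 3 of 3 ES libraries, at ranks of 32.7, 12.9 and 4.02, in 3 of 6 FS, 0 of 3 EpiSC_AF and 2 of 6 EpiSC_AFX libraries. As deposited the peak was in 13 of the 15 libraries outside ES, so little of the contrast remained. All 3 ES ranks were below the middle of the list, and the lowest was near the end of the list. Cdt1 had a peak in 10 of 18 libraries, Orc2 in 15 and Orc6 in 10, and Orc1 had none at a gene end in any list.

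Pcna encodes the sliding clamp that holds DNA polymerases on the template, and its peak was one of the most uniform of the members. Its ranks were 84.2, 84.3 and 80.3 in ES, 92.7, 90.3 and 93.8 in FS1, and 76.8, 94.8 and 71.0 in FS2. They were 91.3, 89.4 and 88.8 in EpiSC_AF, 93.2, 94.7 and 88.7 in EpiSC_AFX1, and 90.5, 88.0 and 85.0 in EpiSC_AFX2. The cultures overlapped, and 18 of 18 peaks covered the start, with a median width of 817 bp. An end of the neighbouring gene Cds2 also lay within 1 kb of these peaks, so they cannot be assigned to Pcna alone.

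The clamp loader places Pcna on DNA, and its subunit Rfc3 had no peak in ES in either form of the lists, though it had one in other cultures. At equal length its ranks were 32.1, 30.8 and 23.8 in FS1, 70.9 and 65.8 in 2 of 3 FS2 libraries, and 43.9 in 1 of 3 EpiSC_AF libraries. They were 22.4 and 31.7 in 2 of 3 EpiSC_AFX1 libraries and 31.1, 31.2 and 24.2 in EpiSC_AFX2. All 3 ES libraries lacked the peak, and 4 of the other 15 lacked it too. In the lists as deposited the peak was in 15 of those 15 libraries and in 0 of 3 ES libraries, and it covered the start in 15 of 15 lists. It was also absent from both Rd2_ES lists, which held 471 and 2576 peaks, and present in 4 of 4 Rd2_EpiLC and 1 of 2 Rd2_AFX lists. Rfc5 had a peak in 17 libraries, Rfc2 in 10 and Rfc4 in 3, and Rfc1 had none at a gene end in any list.

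Of the E2F factors, E2f1 and E2f3, activators of S-phase genes, had a peak in all 18 libraries at equal length. E2f3 had the highest median rank of all members, 90.9, with ranks of 95.9, 97.4 and 93.9 in ES and 78.0, 83.7 and 87.1 in FS1. The FS2 ranks were 84.8, 88.4 and 94.6, and the 9 EpiSC ranks ran from 87.1 to 95.9. All 3 ES ranks were above the 3 of FS1, while FS2 and the EpiSC cultures overlapped with ES. E2f1 ranks ranged from 14 to 96.9 with a median of 75.8. E2f5, of the same kind as the repressive E2f4, had a peak in 3 of 3 ES libraries, at ranks of 44.8, 40.8 and 0.895, and in 6 of the other 15. All 18 lists as deposited held the E2f5 peak.

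E2f4, an E2F factor linked to repression, had a peak in 0 of 3 ES libraries, 2 of 6 FS, 3 of 3 EpiSC_AF and 1 of 6 EpiSC_AFX libraries at equal length, with ranks of at most 33.7. As deposited it had one in 0 of 3 ES libraries and in 15 of 15 others. In 11 of these 15 lists the peak lay at the end next to Elmo3, and an end of Elmo3 or Exoc3l lay within 1 kb of E2f4 peaks. These peaks cannot be assigned to E2f4 alone.

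Among the cyclins, Ccna2, which acts in S phase and G2, and Ccnb1, which acts at mitotic entry, had a peak in all 18 libraries. Ccnb1 ranks were 56.4, 44.6 and 74.9 in ES, 95.5, 68.5 and 54.3 in FS1, and 9.26, 38.7 and 57.8 in FS2. They were 50.7 to 70.5 in EpiSC_AF and 49.8 to 80.1 in EpiSC_AFX, so the cultures overlapped. Ccnb2 had a peak in 14 libraries. Ccne1, a G1/S cyclin, had one in 17, at ranks of 61.3, 87.1 and 27.7 in ES and of 86.8, 86.9 and 86.7 in EpiSC_AF, whose 3 values were the most alike. The related Ccne2 had a peak in 2 of 3 ES libraries and 3 of the other 15 at equal length, and in 17 of 18 lists as deposited.

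The D-type cyclins, which drive G1 with Cdk4 and Cdk6, had few gene-end peaks. Ccnd2 had none in ES, FS1 or FS2 at equal length, ranks of 40.1, 28.8 and 37.5 in EpiSC_AF, 33.6 in 1 of 3 EpiSC_AFX1 libraries, and 53.8, 46.1 and 62.7 in EpiSC_AFX2. The epiblast stem cell cultures thus held every one of the 7 peaks. As deposited it was in 3 of 3 FS1 libraries as well, in 0 of 3 FS2 and 0 of 3 ES. These peaks were at 2 places. One lay around chr6:127150968-127151237, inside the gene, in FS1, EpiSC_AFX1 and 2 of 3 EpiSC_AF libraries, and the other around chr6:127152410-127152708, beyond its end, in EpiSC_AFX2 and EpiSC_AF replicate 1.

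Ccnd1 had no gene-end peak at equal length, and as deposited it had one in 0 of 3 ES, 3 of 3 FS1, 0 of 3 FS2, 2 of 3 EpiSC_AF, 2 of 3 EpiSC_AFX1 and 3 of 3 EpiSC_AFX2 libraries. The 6 libraries without Ccnd1 and Ccnd2 peaks in ES and FS2 were those with the 6 shortest lists. Ccnd3 had no gene-end peak in any list.

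Cdk4, the partner of the D cyclins, had a rank of 17.8 in 1 of 3 ES libraries and no peak in the other two. Its ranks were 69.0, 60.4 and 85.7 in FS1, and no FS2 library held a peak. In EpiSC_AF they were 85.4, 88.3 and 78.0, in EpiSC_AFX1 46.1, 52.3 and 69.1, and in EpiSC_AFX2 82.4, 84.3 and 84.0. At equal length Cdk4 thus had a peak in every FS1 and no FS2 library, a difference that was not tested, as had Mcm2 and Cdk2. These were 3 of the 31 members with a peak in either culture, next to 2.86% of all such genes, and 0 members showed the reverse, next to 1.06%. As deposited, 2 of 3 FS2 libraries held the Cdk4 peak, 2 the Cdk2 peak and 1 the Mcm2 peak. Cdk1, the mitotic kinase, had a peak in 17 libraries, Cdk2 in 12 and the phosphatase Cdc25a in 18, while Cdk6 had none at a gene end at equal length and one in 4 lists as deposited.

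**Figure D3:**
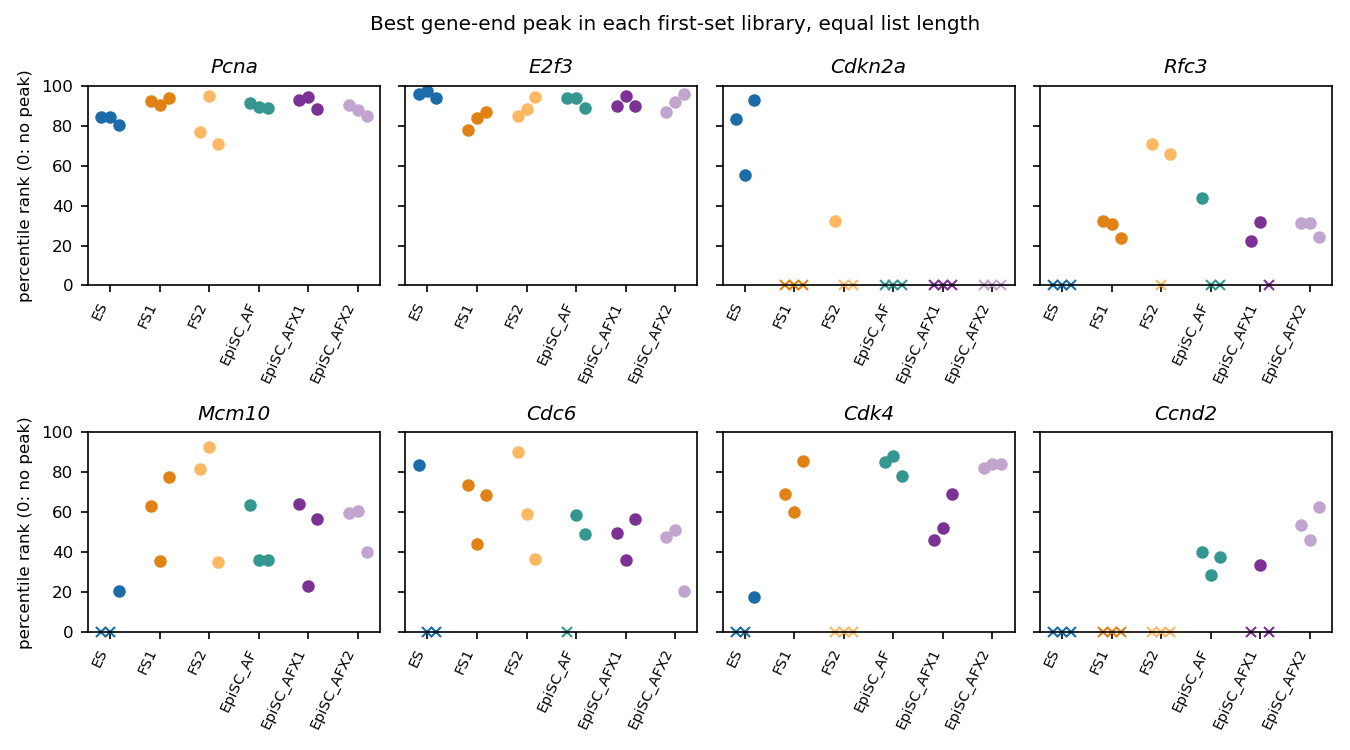
Percentile rank of the best gene-end peak of 8 members in each first-set library at equal list length, by culture; each point is 1 library and a cross at 0 marks no peak. The 8 members were chosen after their values were seen. Pcna and E2f3 are high in every library, Cdkn2a is present in all ES libraries and 1 FS2 library, and Rfc3 is absent from ES.

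The inhibitors were the role with the fewest gene-end peaks, 16.7% on average over the first set. Cdkn1a had no gene-end peak in any list, which lowers this share in every culture. The second start of Cdkn1a lay 2790 bp from the gene end and had a peak in 17 of 18 libraries. By culture the role's share was 55.6% in ES, 11.1% in FS, 11.1% in EpiSC_AF and 5.56% in EpiSC_AFX, which rests on Cdkn2a and Cdkn1b. In the lists as deposited the order turned, with 55.6% in ES, 61.1% in FS, 66.7% in EpiSC_AF and 66.7% in EpiSC_AFX. Over all genes the equal-length means were 21.1% in ES, 24.6% in FS and 25.7% in EpiSC_AFX. Cdkn1b, an inhibitor of Cdk2, had a peak at ranks of 34.2 and 36.7 in 2 of 3 ES libraries, and in 3 of the other 15 at ranks of 6.41 to 36.7. Cdkn2a encodes Ink4a, an inhibitor of Cdk4 and Cdk6, and, from an upstream promoter, Arf, which stabilises p53. Its ranks were 83.5, 55.5 and 93.2 in ES, 32.6 in FS2 replicate 1, and the other 14 libraries of the first set had no gene-end peak. The 3 ES ranks were all above that of FS2.

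In the lists as deposited, Cdkn2a had a gene-end peak in 18 of 18 first-set libraries, so in the 14 libraries without it at equal length it was below the 8044 strongest peaks rather than missing from the list. Its rank within the whole list was 87.9, 55.5 and 94.4 in ES, 23.6 to 61.7 in the 6 FS lists, 16.3 to 60.9 in the 3 EpiSC_AF lists and 23.4 to 64.0 in the 6 EpiSC_AFX lists. These ranks come from lists of unequal length and are no measure of change. All 18 peaks lay nearest the upstream start, whose window is printed above, and in 13 of the 18 lists a peak covered it. The downstream start, 7719 bp from the nearer gene end, had a peak in 0 of 3 ES libraries as deposited and in 13 of the other 15. At equal length 2 of 6 EpiSC_AFX libraries held a peak near an annotated start of Cdkn2a. Of the Rd2 libraries, Rd2_ES replicate 2 held the upstream peak at a rank of 67.6 in a list of 2576 peaks. At 7469 peaks the Rd2_EpiLC ranks were 23.8, 47.6 and 36.7 in replicates 1 to 3, with no peak in replicate 4, and Rd2_AFX had none. The neighbouring inhibitor gene Cdkn2b, which is no member and was singled out after its values were seen, had a peak in 3 of 3 ES, 0 of 6 FS, 1 of 3 EpiSC_AF and 2 of 6 EpiSC_AFX libraries at equal length. As deposited, every first-set library held a Cdkn2b peak, so this contrast also depended on the list length.

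ES was compared with FS, with EpiSC_AFX and with the other 15 first-set libraries, and FS with EpiSC_AFX, by Fisher's exact test on the number of libraries with a gene-end peak, two-sided, at equal length. All genes with a peak in at least 1 library entered, and p-values were adjusted by Benjamini-Hochberg over them. The 3 comparisons of ES share the ES libraries, and the last of them also shares the FS and EpiSC_AFX libraries, so they are not independent. No gene of the whole table, and so no member, passed an adjusted p of 0.05 in any of these comparisons. Fisher's exact test gave 560, 677, 909 and 35 genes at an unadjusted p under 0.05 in the order just named. An exact permutation test of the ranks gave 889, 1491, 1721 and 644, and also 0 after adjustment. Adjusted p-values could not have passed at the numbers observed. With 3 against 6 libraries the smallest p is 0.0119, which 2364 genes would have to reach in the comparison of ES with FS, and 274 did. The counts below are therefore of unadjusted p-values under 0.05, and none of them survived correction.

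Between ES and FS, 2 of 32 tested members had an unadjusted p under 0.05, next to 5.64% of all 9925 genes tested. Cdkn2a had one in 3 of 3 ES libraries against 1 of 6 for FS (Fisher's exact p = 0.0476, adjusted 0.807), and Rfc3 in 0 of 3 and 5 of 6 (p = 0.0476, adjusted 0.807). The mean share of members was 55.8% in ES and 57.5% ± 7.42 in FS (SD, n = 6), a difference of -1.67 percentage points, which was smaller than the spread between FS libraries. Without the 3 FS2 libraries, a choice made after the data were seen, it was -7.50. Over all genes the means were 21.1% and 24.6%.

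Between ES and EpiSC_AFX, Cdkn2a and Rfc3 were again the 2 of 33 tested members under 0.05, next to 7.11% of all genes tested. Cdkn2a had one in 3 of 3 ES libraries against 0 of 6 for EpiSC_AFX (Fisher's exact p = 0.0119, adjusted 0.291), the only member with such a full separation, which 0.998% of all genes showed in that direction and 3.09% in the other. Rfc3 had one in 0 of 3 and 5 of 6 (Fisher's exact p = 0.0476, adjusted 0.602). The members' mean share was 60.8% ± 2.58 in EpiSC_AFX (SD, n = 6), and the difference of -5 percentage points from ES, larger than the SD of either group, stood beside means over all genes of 21.1% and 25.7%.

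Between FS and EpiSC_AFX, 0 of 33 tested members had an unadjusted p under 0.05, next to 0.356% of all genes tested. The nearest was Ccnd2, with a peak in 0 of 6 FS and 4 of 6 EpiSC_AFX libraries (Fisher's exact p = 0.0606, adjusted 1). The members' mean shares differed by -3.33 percentage points, beside means over all genes of 24.6% in FS and 25.7% in EpiSC_AFX. Without FS2 the members' difference was 2.5, so its sign rests on that culture.

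Against all 15 other first-set libraries, 3 of 33 tested members had an unadjusted p under 0.05 in ES, next to 8.49% of all genes tested. Cdkn2a had a peak in 3 of 3 and 1 of 15 (Fisher's exact p = 0.0049, adjusted 0.206), Mcm10 in 1 of 3 and 15 of 15 (p = 0.0196, adjusted 0.333), and Rfc3 in 0 of 3 and 11 of 15 (p = 0.0429, adjusted 0.505). The members' mean share differed by -3.5 percentage points, and by -5.42 without FS2. The members' share of calls was close to that of all genes in each comparison of ES, so the members did not stand out from other genes by this count.

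In the lists as deposited, 551 genes passed an adjusted p of 0.05 between ES and the other 15 libraries, which is 3.87% of 14254 tested, and 543 of them (3.81% of those tested) had a peak in fewer ES libraries by share. Rfc3 and E2f4 were among them, each with a peak in 0 of 3 and 15 of 15 libraries (Fisher's exact adjusted p = 0.0317). The share of members with a gene-end peak was 55% to 62.5% in ES and 65% to 90% in the others, while that of all genes was 21.3% to 26.1% and 32.1% to 55.1%. ES had the 3 shortest lists, so list length and cell type cannot be told apart in these lists. Between ES and FS as deposited, 2 of 36 members (E2f4 and Rfc3) had an unadjusted p under 0.05, next to 12.5% of genes tested. Between ES and EpiSC_AFX there were 4 of 36 (Ccnd1, Ccnd2, E2f4 and Rfc3), next to 23.4%.

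In the Rd2 set at 7469 peaks, Rd2_EpiLC had a gene-end peak at 57.5% ± 7.91 of the members (SD, n = 4) and Rd2_AFX at 56.25% ± 8.84 (n = 2). The difference of 1.25 percentage points was smaller than the spread in either group. Its sign rests on single libraries, since it was -2.08 without Rd2_EpiLC replicate 2 and -5 without Rd2_AFX replicate 1. None of 31 tested members, and 0% of all genes, had an unadjusted p under 0.05, because 4 against 2 libraries cannot go below 0.0667 in Fisher's exact test. No member had a peak in every Rd2_EpiLC and no Rd2_AFX library, which 1.3% of all genes showed, or the reverse, which 1.92% showed. Mcm6 had a peak in 0 of 4 Rd2_EpiLC and 0 of 2 Rd2_AFX libraries, although 14 of 18 first-set libraries held one. The sets were not compared by a test because they were taken as processed differently. Rd2_ES replicate 1, with 471 peaks, had no member peak, and replicate 2, with 2576, had 9: Mcm3, Mcm4, Mcm5, Pcna, E2f3, Ccne1, Cdc25a, Cdkn1b and Cdkn2a.

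Over the first set at equal length, 8 of the 40 members had a gene-end peak in all 18 libraries (Mcm4, Mcm5, Pcna, E2f1, E2f3, Ccna2, Ccnb1 and Cdc25a), 25 in some and 7 in none. Near its annotated start Cdc25a had a peak in 16 of 18. Over all genes, 5.86% had a gene-end peak in all 18 and 51.1% in none, and of the 78 other pathway genes 15.4% and 16.7%. The 7 members without were Orc1, Rfc1, E2f2, Ccnd1, Ccnd3, Cdk6 and Cdkn1a. As deposited, 12 members were in all 18 lists and 4 in none (Orc1, Rfc1, Ccnd3 and Cdkn1a), and those 4 had no gene-end peak in any of the 26 lists.

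Each of these 4 genes had an annotated start more than 1 kb inside its RefSeq span, and had a peak near that start. The start of Orc1, the largest subunit of the origin recognition complex, lay 3749 bp from the gene end and had a peak in 10 libraries at equal length and in 16 as deposited. That of Rfc1, the large subunit of the clamp loader, lay 2978 bp inside and had one in 6 and 15. The second start of Ccnd3, 6222 bp inside, had one in 14 and 16, and the first start had none. The second start of Cdkn1a, a p53 target that inhibits cyclin-dependent kinases, lay 2790 bp inside and had a peak in 17 of 18 libraries in both forms of the lists. Its ranks at equal length were 55.1 and 80.2 in 2 of 3 ES libraries, 45.8 to 86.5 in FS and 8.99 to 78.0 in the EpiSC libraries, so its start had a peak also in libraries without a Cdkn2a peak.

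**Figure D4:**
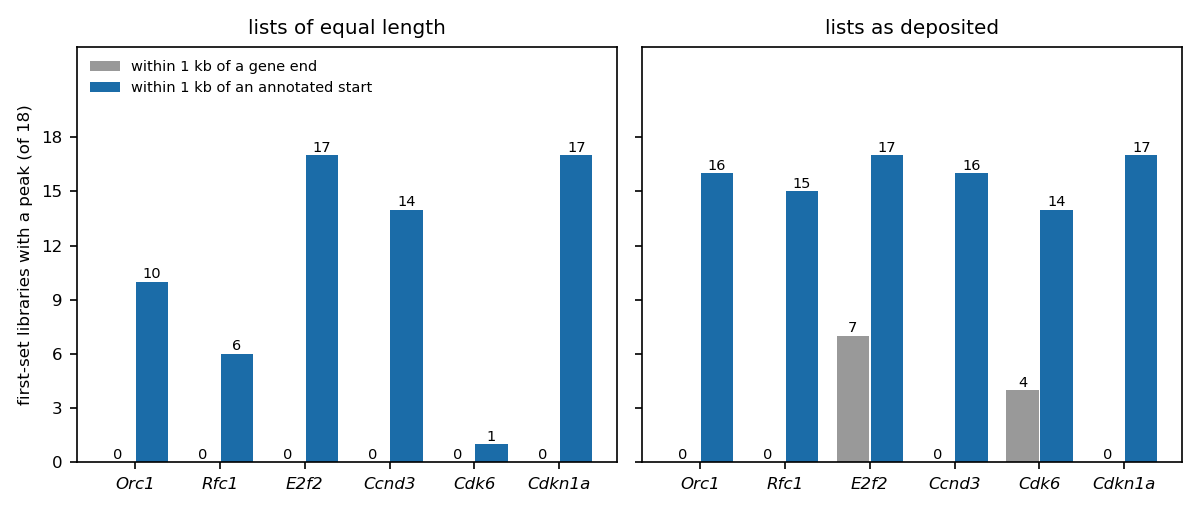
Number of the 18 first-set libraries with a gene-end peak (grey) and with a peak no more than 1 kb from an annotated start (blue) for 6 members, at equal list length (left) and in the lists as deposited (right). Orc1, Rfc1, Ccnd3 and Cdkn1a have grey counts of 0 in both panels and blue counts of up to 17.

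E2f2, an activator like E2f1, had a peak at its second start, 8508 bp inside, in 17 of 18 libraries, at ranks of 7.81 and 85.4 in 2 of 3 ES libraries and of 65.3 to 95.4 in the other 15. Cdk6, the other partner of the D cyclins, had a peak at its start, 2889 bp inside, in 1 library at equal length and 14 as deposited. With annotated starts in place of gene ends, all 32 members that have one had a peak in at least 1 first-set list at equal length, while 48.6% of all genes with a start had none. The share of members with a peak was then 63.5% in ES, 71.9% in FS and 77.1% in EpiSC_AFX at equal length. The share of all genes by starts is not given by cell type here. By gene ends it was 21.1% in ES, 24.6% in FS and 25.7% in EpiSC_AFX. By gene ends a lower share in ES was thus not particular to the members.

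Most peaks within 1 kb of a member's start lay over it or close to it. As deposited, 36 member starts had a peak within 1 kb in the first set, in 578 pairs of a start and a list. In 480 of these pairs (83.0%) a peak covered the start. Nearby starts of 1 gene can share a peak, and the share over all genes is not given here. The median distance from start to the centre of the strongest such peak was -62.1 bp over the 36 starts, and for 31 of them it was within 250 bp. The exceptions included E2f1 at -574 bp and Cdc6 at -414 bp upstream and Cdc45 at 284 bp downstream. The RefSeq gene end lay 466 bp upstream of the E2f1 start and 442 bp upstream of the Cdc6 start, on the side of those peaks. Of the 36 members with a gene-end peak in some first-set list, 7 had an end of another gene within 1 kb of it: Mcm4 (Prkdc), Mcm7 (Ap4m1), Cdc45 (Ufd1), Orc6 (Vps35), Pcna (Cds2), E2f4 (Elmo3 and Exoc3l) and Ccna2 (Bbs7). Those peaks cannot be assigned to 1 gene.

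The 78 other genes of the pathway were read from the same tests. At equal length between ES and FS, 64 were tested, of which 1 had an unadjusted p under 0.05 with more libraries in ES (Cdkn2b) and 3 with fewer (Aurkb, Lin37 and Pold1), next to 1.59% and 4.05% of all genes. Between ES and EpiSC_AFX, 62 were tested, with 1 higher (Wdhd1) and 2 lower (Lin37 and Pold1), next to 1.61% and 5.5%. Between FS and EpiSC_AFX 0 of 65 passed, and against the other 15 libraries 2 of 65 were higher in ES (Cdkn2b and Wdhd1) and 2 lower (Lin37 and Pold1), next to 2.34% and 6.15%. Pold1, the catalytic subunit of DNA polymerase delta, which works with Pcna, had a peak in 0 of 3 ES libraries and in 15 of 15 others, which 0.794% of all genes showed. None of these passed after adjustment at equal length, and Pold1 and Lin37 passed as deposited. Every first-set library held a Cdkn2b peak as deposited, and 2 or 3 libraries of each first-set culture held a Wdhd1 peak.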

How the data were processed

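The authors deposited 1 broadPeak list per library, so peaks were called per sample. The submitters' processing notes name Trim Galore, Bowtie, Picard, MACS2 and mm10, and the settings are not given in the sources used here. Each deposited peak has a score, a fold enrichment ratio and its −log10 q and −log10 p. The −log10 p was used to rank peaks within their own list, and the score was not used. The fold enrichment ratio of the authors and their −log10 q served as alternatives for ranking and filtering. The Rd2 lists carry another processing tag than those of the first set. The shortest peak was 150 bp in the first set and 110 bp in the Rd2 set, which alone does not show other processing. The sets were taken as processed differently and were not tested against each other.

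Gene ends and starts came from RefSeq tables of GRCm38.p6, the assembly that mm10 corresponds to. All 40 members and all 78 pathway genes matched by symbol, and 32 members had a start. For each gene and library, the peak of highest −log10 p within 1 kb of a gene end was taken. Fisher's exact test, two-sided, was run per gene on numbers of libraries, with Benjamini-Hochberg adjustment over all genes with a peak in at least 1 library compared, at a threshold of 0.05, in 5 comparisons. It was tested on simulated data. Python 3.11.15, pandas 2.3.3 and SciPy 1.17.1 were used.

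The members and gene lists were chosen with earlier results of these data known. The rule for named genes took members with a peak in every library of one first-set cell type and none of another, members in all 18 libraries or in no list, the 10 with the largest difference in presence between ES and the other 15 libraries, and the G1 regulators. Nothing says that libraries of a culture came from separate cultures, so p-values measure only the spread between these libraries, which may be technical. The Rd2_EpiLC titles carry 2-part numbers, and the 4 libraries were numbered in accession order. Depth is unknown, so no counting interval is given. Alternatives covered list length, the ranking value, a stricter q, distance, annotated starts, the test, the replicate block and leaving out each library.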

Additional observations from a re-analysis of the deposited data

Results flagged for a closer look

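The median rank of the members with a peak at equal length was 74.5 in FS2 replicate 1 (74.453 before rounding), which stood apart from the other 5 FS libraries, whose medians were 53.2 to 61.1. Of 18 such gap tests on groups of 4 or more libraries this was the only one past the limit, and chance passes about 1 in 20. This library also held the single gene-end peak of Cdkn2a outside ES in the first set at equal length.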

How the results depend on the processing

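No gene was called by the adjusted test at equal length under any alternative for ES against FS, ES against EpiSC_AFX, FS against EpiSC_AFX or Rd2_EpiLC against Rd2_AFX, a count that the numbers of libraries alone can give. For ES against the other 15 libraries it was 551 in the lists as deposited and 0 otherwise. The difference in the members' share depended on list length. As deposited it was -19.2 percentage points for ES against FS, -28.3 for ES against EpiSC_AFX, -9.17 for FS against EpiSC_AFX and -23.5 for ES against the other 15. Over all genes the means as deposited were 23.7% in ES, 44.0% in FS and 51.5% in EpiSC_AFX, so the lower share in ES was not particular to the members. With a −log10 q of at least 5 on whole lists the members' differences were, in the same order of comparisons, -34.6, -56.25, -21.7 and -46.3. With annotated starts only, the members' differences for ES were -8.33, -13.5 and -10.2. Differences over all genes are not given for the q and start alternatives. Leaving out FS2, chosen after the data were seen, gave 2.5 for FS against EpiSC_AFX. The cause was not tested. Leaving out each library in turn gave -3.67 to -0.167 for ES against FS, -5.83 to -4.58 for ES against EpiSC_AFX, -4.83 to -1.33 for FS against EpiSC_AFX, -4.35 to -3.08 for ES against the other 15 and -5 to 7.5 in the Rd2 set, and 0 to 0 genes called in each. The genes at an unadjusted p under 0.05 were then 306 to 477, 426 to 642, 51 to 78, 571 to 886 and 0, from fewer libraries. Without FS2, 0, 100 and 1159 were under it for ES against FS, FS against EpiSC_AFX and ES against the others, where the first is fixed by 3 against 3 libraries, which cannot go below 0.1 in Fisher's exact test.

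Rfc3 and E2f4 passed the adjusted test only in the lists as deposited. With the replicate number as a block, 0 genes were called in the 4 first-set comparisons, and 274, 389, 35 and 820 had an unadjusted p under 0.05 (ES against FS, ES against EpiSC_AFX, FS against EpiSC_AFX and ES against the other 15). Libraries with the same number did not deviate together (correlations of -0.0196 to 0.0138 in 45 pairs, against -0.0204 to 0.0259 in 90 others). This measure showed no pairing by number, but it cannot show that there was none. The block was not run for the Rd2 set, whose EpiLC numbers come from accession order. An unknown depth limits every statement that a peak was missing.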
